A study of Mus musculus with 6 samples.

Results

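The 8 genes described here encode pleiotrophin (Ptn) and midkine (Mdk), a pair of secreted growth factors, and their best known receptors: the receptor tyrosine phosphatase Ptprz1, the receptor tyrosine kinase Alk and the syndecans Sdc1, Sdc2, Sdc3 and Sdc4. They are 8 of 24061 rows of a gene count table from mouse lung. They were chosen by family membership, and also from the difference between the CCSP/TGFalpha and control lungs, which was already known when the set was drawn up. Levels and fold changes of these 8 genes are therefore given as a description, with no test. Of the 8 genes, 7 passed the filter on low counts and Alk did not.

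Lung RNA was sequenced in 2 groups of 3 libraries, in a study of pulmonary fibrosis induced by TGFalpha. The CCSP/TGFalpha mice carried both CCSP and TGFalpha. The control mice were CCSP/-, without TGFalpha. All of them had doxycycline for 3 weeks, so the CCSP transgene and the drug are shared by both groups. CCSP is the club cell secretory protein, and its promoter is used in mice to direct transgenes to lung epithelium, while the RNA measured here came from all cells of the lung. TGFalpha is a ligand of the epidermal growth factor receptor (EGFR). The age, sex and strain of the mice were not used here, and no label says whether each library came from a separate animal, so the p-values take in the variation among these libraries only, which may be technical.

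Library totals ran from 21479006 to 24914322 counts. The mouse Tgfa row had 26.6, 25.9 and 29.9 CPM (the read count relative to the TMM-scaled library size) in CCSP/TGFalpha lungs, against 26.4, 22.6 and 28.4 CPM in control lungs, so it did not separate the groups (edgeR adjusted p = 0.739). How much of a transgene this row could count was not stated. The lung markers Sftpc and Scgb1a1 averaged 5960 and 1900 CPM in CCSP/TGFalpha lungs and 4220 and 4740 CPM in control lungs. The libraries numbered 1 stood apart by skeletal muscle transcripts: the 6 markers of that tissue summed to 2110 CPM in TGFalpha replicate 1 and 1270 CPM in control replicate 1, against 51.8 to 68.7 CPM in the other 4 libraries. Fold changes without both of these libraries are given with each gene.

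Pleiotrophin and midkine are small, basic proteins that bind heparin and together make up a growth factor family of their own. They are abundant in developing organs, where they are made at sites of contact between epithelium and mesenchyme, the lung among them, and they are scarce in most adult tissues. Ptprz1 carries chondroitin sulfate chains to which both factors bind, and binding of pleiotrophin lowers its phosphatase activity. Syndecans are membrane proteins with heparan sulfate chains that hold such factors at the cell surface. Alk was reported as a receptor for both factors, and its established ligands are the ALKAL proteins.

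Both ligand genes were far higher in the CCSP/TGFalpha lungs, while the tested receptor genes differed much less than the ligand genes. Ptn was 34.7-fold and Mdk 13.8-fold higher in CCSP/TGFalpha lungs. Sdc1, Sdc2 and Sdc4 were 1.48-fold, 1.51-fold and 1.60-fold higher, and Ptprz1 and Sdc3 were at 0.569 and 0.829 times the control level. Alk had no count in any of the 6 libraries. Against all 16089 genes tested, 2 of the 7 tested genes were past an edgeR adjusted p of 0.05 as higher (Ptn and Mdk), where 5.03% of all genes were higher, 3.29% were lower and 8.33% were either. None of the 7 was past it as lower, and 1 was lower at an unadjusted p under 0.05. DESeq2 also gave 0 lower. Because the set was chosen with this difference known, nothing is read from these counts. The median log2 fold change was 0.59 for the 7 genes and 0.01 for all genes tested.

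**Figure D1:**
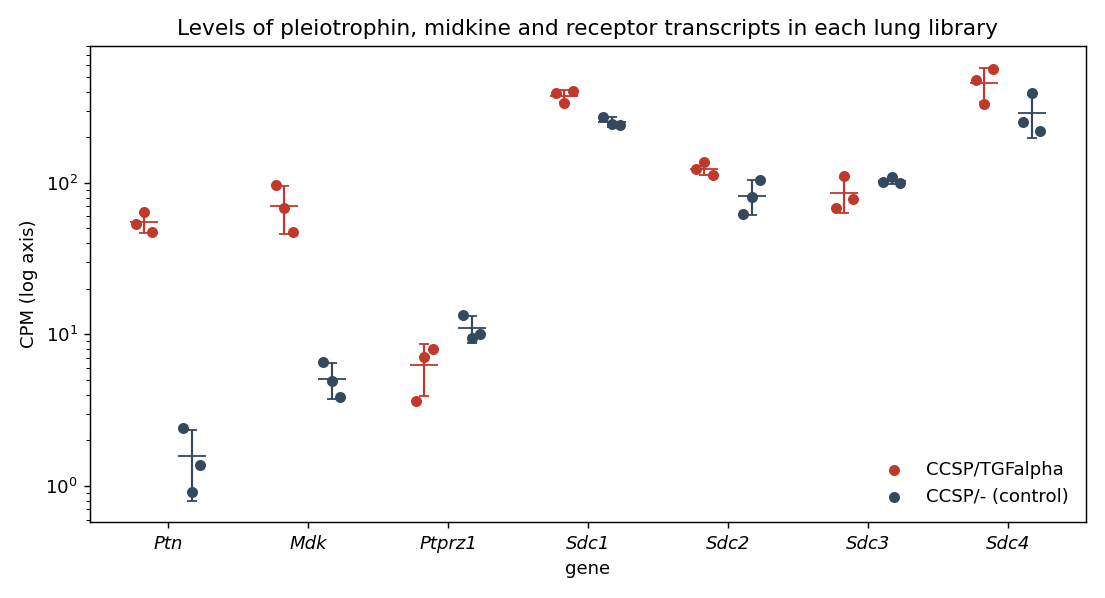
CPM of each tested gene (log axis) in the 3 CCSP/TGFalpha libraries (red, left of each pair) and the 3 control libraries (dark, right of each pair). Points are libraries, horizontal marks are means and bars are SD. Ptn and Mdk lie at 47.4 CPM and above in the CCSP/TGFalpha libraries and at 6.54 CPM and below in the control libraries, while the receptor genes lie close together between groups.

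Promoter windows of 6 of the 8 genes were taken from a RefSeq table (GRCm38.p6, the same assembly as mm10), and those of Mdk and Sdc2 were not analysed here. A window ran from 250 bases before to 50 bases after the start used for it. For Ptn, Sdc1, Sdc3 and Sdc4 that start is the outer end of the gene range given below. For Ptprz1 and Alk it lies inside the gene range. The Ptprz1 window thus begins before its gene range and runs into it, and the Alk window lies wholly within its gene range. The 4 shown are those of Ptn, which had the largest difference, of Sdc1 and Sdc4, the most abundant receptor genes, and of Ptprz1, the receptor gene that was lower with no overlap between groups. They lie at chr6:36810130-36810429 (minus strand) for Ptn, chr12:8771146-8771445 (plus strand) for Sdc1, chr2:164443139-164443438 (minus strand) for Sdc4 and chr6:22875252-22875551 (plus strand) for Ptprz1. Each reads 5′ to 3′ on the strand of its gene. Capitals mark matches, on either strand, to GGGCGG for the GC box or to CCGGAA for the ETS core.
Ptn: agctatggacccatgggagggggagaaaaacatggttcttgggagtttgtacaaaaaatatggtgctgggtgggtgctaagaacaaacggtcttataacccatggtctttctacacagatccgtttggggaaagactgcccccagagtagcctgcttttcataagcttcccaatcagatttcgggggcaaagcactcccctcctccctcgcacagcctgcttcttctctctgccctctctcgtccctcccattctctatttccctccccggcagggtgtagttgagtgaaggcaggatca
Sdc1: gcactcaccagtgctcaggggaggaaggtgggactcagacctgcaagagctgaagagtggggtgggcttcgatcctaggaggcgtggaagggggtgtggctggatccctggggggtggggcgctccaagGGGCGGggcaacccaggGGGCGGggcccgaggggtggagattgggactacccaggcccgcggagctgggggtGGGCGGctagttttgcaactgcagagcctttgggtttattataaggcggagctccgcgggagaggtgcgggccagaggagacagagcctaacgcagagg
Sdc4: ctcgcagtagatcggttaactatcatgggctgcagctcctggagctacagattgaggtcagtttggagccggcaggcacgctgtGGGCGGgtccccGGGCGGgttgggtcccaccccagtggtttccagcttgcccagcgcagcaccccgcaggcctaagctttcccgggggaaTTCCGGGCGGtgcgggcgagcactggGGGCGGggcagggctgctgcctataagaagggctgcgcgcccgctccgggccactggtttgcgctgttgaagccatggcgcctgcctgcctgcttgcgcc
Ptprz1: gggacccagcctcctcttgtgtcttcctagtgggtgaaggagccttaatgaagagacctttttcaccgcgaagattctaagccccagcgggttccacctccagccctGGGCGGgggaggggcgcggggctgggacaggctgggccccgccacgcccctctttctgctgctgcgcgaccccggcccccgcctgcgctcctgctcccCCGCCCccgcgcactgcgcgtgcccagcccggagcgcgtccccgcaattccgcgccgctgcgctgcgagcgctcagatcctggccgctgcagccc

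The Ptn window had 52.0% G and C with 6 CpG dinucleotides, near the medians of 52.7% and 7 over all 32851 promoters of this length. The receptor windows were richer: 66.3% with 14 CpG for Sdc1, 67.7% with 22 for Sdc4, 71.7% with 29 for Ptprz1, 77.7% with 44 for Sdc3 and 64.0% with 28 for Alk. A GC box, the motif read by Sp family factors, was matched 4 times for Sdc4, 3 times each for Sdc1 and Sdc3, 2 times for Ptprz1, 1 time for Alk and 0 times for Ptn, and 35.7% of all promoters hold at least 1. The ETS core was found once each for Sdc4 and Alk (14.9% of all promoters), and in Sdc4 it shares bases with a GC box. Neither TGANTCA for the AP-1 site (7.81% of all promoters) nor TATAAA for the TATA box (13.6%) was matched in any of the 6 windows. These are matches of letters only, and the windows of Ptprz1 and Alk lie partly or wholly inside their gene ranges.

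Ptn (gene ID 19242, GRCm38 chromosome 6, 36714924 to 36810179), the pleiotrophin gene, had 1253, 1560 and 1131 counts in CCSP/TGFalpha replicates 1 to 3, against 60, 20 and 30 counts in control replicates 1 to 3. In CPM this was 53.3, 64.1 and 47.4 in CCSP/TGFalpha lungs, against 2.41, 0.917 and 1.37 in control lungs. All 3 CCSP/TGFalpha libraries were far above all 3 control libraries, and the lowest of them was 19.7-fold above the highest control. The mean was 54.9 ± 8.51 CPM in CCSP/TGFalpha lungs and 1.57 ± 0.765 CPM in control lungs (SD, n = 3 each), a log2 fold change of 5.12 ± 0.35 (SE). Only 28 of the tested genes had a larger one, since Ptn ranked 29 of 16089. The mean level of Ptn was above that of 74.3% of tested genes in CCSP/TGFalpha lungs and above that of 10.2% in control lungs. Leaving out the muscle-rich libraries numbered 1, the log2 fold change was 5.60.

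Mdk (gene ID 17242, chromosome 2, 91929805 to 91932297), the midkine gene, had 2269, 1663 and 1132 counts in CCSP/TGFalpha lungs, against 163, 107 and 85 counts in control lungs. This was 96.4, 68.4 and 47.4 CPM in CCSP/TGFalpha lungs, against 6.54, 4.90 and 3.88 CPM in control lungs. The groups were again wide apart, with the lowest CCSP/TGFalpha library 7.25-fold above the highest control. The mean was 70.7 ± 24.6 CPM in CCSP/TGFalpha lungs and 5.11 ± 1.34 CPM in control lungs (SD, n = 3 each), and the log2 fold change was 3.79 ± 0.32 (SE), which ranked 69 of 16089. Without the libraries numbered 1 it was 3.71. The CCSP/TGFalpha libraries were spread more widely for Mdk than for Ptn, with a coefficient of variation of 34.8% against 15.5%.

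The balance of the ligands also differed. The ratio of Ptn to Mdk in CPM was 0.552, 0.938 and 0.999 in CCSP/TGFalpha lungs, against 0.368, 0.187 and 0.353 in control lungs, with no overlap. Per kilobase of the longest annotated transcript, Mdk remained the more abundant ligand in every library, since the ratio of Ptn to Mdk on that scale was 0.228 to 0.412 in CCSP/TGFalpha lungs and 0.077 to 0.152 in control lungs.

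Markers of several cell types moved with the ligand genes, and their part in the difference was not tested. In a bulk sample more cells of a type and more RNA per cell cannot be told apart. The 6 fibroblast markers summed to 932 to 1460 CPM in CCSP/TGFalpha lungs and 589 to 652 CPM in control lungs, and 2 of them, the matrix genes Dcn and Lum, passed the test as higher. Dcn, at 955, 848 and 375 CPM in CCSP/TGFalpha lungs against 342, 175 and 169 CPM in control lungs, made up most of the difference in the sum. The other 4 markers overlapped between groups and did not pass, with log2 fold changes of 0.29 for Pdgfra, 0.46 for Col14a1, -0.24 for Col13a1 and -0.42 for Pi16. The 5 mesothelial markers summed to 274 to 369 CPM in CCSP/TGFalpha lungs, against 204, 212 and 23.7 CPM in control replicates 1 to 3. The low control sum thus came from control replicate 3 alone. Wt1, the single marker that passed, averaged 120 CPM in CCSP/TGFalpha lungs and 8.22 CPM in control lungs. It made up most of the difference in the mean sum. Bnc1 was higher with no overlap and did not pass. Msln, Upk3b and Lrrn4 overlapped and did not pass, and Msln went the other way (log2 fold change -0.30). The 6 Schwann cell and neural markers summed to 90.6 to 185 CPM in CCSP/TGFalpha lungs and 51.9 to 68.1 CPM in control lungs. Of these, S100b and the adhesion molecule gene Ncam1 passed as higher. Ncam1 averaged 76.0 CPM in CCSP/TGFalpha lungs and 3.04 CPM in control lungs, while the defining marker Sox10 was near 0, at 0.0964 CPM in CCSP/TGFalpha lungs and 0.159 CPM in control lungs. The 6 endothelial markers summed to 921 to 1680 CPM in CCSP/TGFalpha lungs and 1780 to 3210 CPM in control lungs, and 3 of them fell. Epithelial sums were also lower with no overlap for 3 of 4 lists. The 6 alveolar type 1 markers summed to 1210 to 2000 CPM in CCSP/TGFalpha lungs and 2150 to 3220 CPM in control lungs. Of these, 2 (Hopx and Cav1) fell. Cav1 had the largest difference in CPM, with means of 554 in CCSP/TGFalpha lungs and 1290 in control lungs. Rtkn2 and Pdpn were lower with no overlap and did not pass, and Ager overlapped. Aqp5 went the other way with no overlap and did not pass, at 188, 111 and 191 CPM in CCSP/TGFalpha lungs against 85.8, 105 and 89.4 CPM in control lungs. The 5 ciliated cell markers summed to 63.7 to 110 CPM in CCSP/TGFalpha lungs and 171 to 201 CPM in control lungs, and 2 (Ccdc39 and Hydin) fell. The 4 club cell markers summed to 4550 to 5960 CPM in CCSP/TGFalpha lungs and 8520 to 10400 CPM in control lungs. Among them Scgb1a1 fell (edgeR adjusted p = 0.0491). It had the largest difference in CPM of that list, with means of 1900 in CCSP/TGFalpha lungs and 4740 in control lungs. Cyp2f2 was lower with no overlap and did not pass. Scgb3a2 and Scgb3a1 overlapped and did not pass, and Scgb3a1 went the other way (log2 fold change 0.62). The 5 cardiac muscle markers summed to 50.6 to 75.7 CPM in CCSP/TGFalpha lungs and 91.6 to 133 CPM in control lungs, and Actc1 fell. Sums of the smooth muscle list overlapped, at 159 to 395 CPM in CCSP/TGFalpha lungs and 159 to 218 CPM in control lungs. Within it Myh11 fell, at 10.2, 11.3 and 14.3 CPM in CCSP/TGFalpha lungs against 21.4, 37.1 and 45.5 CPM in control lungs (edgeR adjusted p = 0.0196). Acta2, Des, Cnn1 and Actg2 overlapped and did not pass. Sums of the macrophage list overlapped too, at 362 to 734 CPM in CCSP/TGFalpha lungs and 439 to 912 CPM in control lungs, and no macrophage marker passed. No marker of these lists was at 0 in every library. Calls in the marker lists depended on single libraries. With 1 library left out, 0 to 6 endothelial, 0 to 2 alveolar type 1 and 0 to 1 ciliated cell markers passed. In the same fits 0 to 1 club cell, 0 to 2 cardiac muscle and 0 to 1 smooth muscle markers passed. For fibroblast, mesothelial and Schwann cell and neural markers the numbers were 1 to 2, 0 to 1 and 1 to 2.

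**Figure D2:**
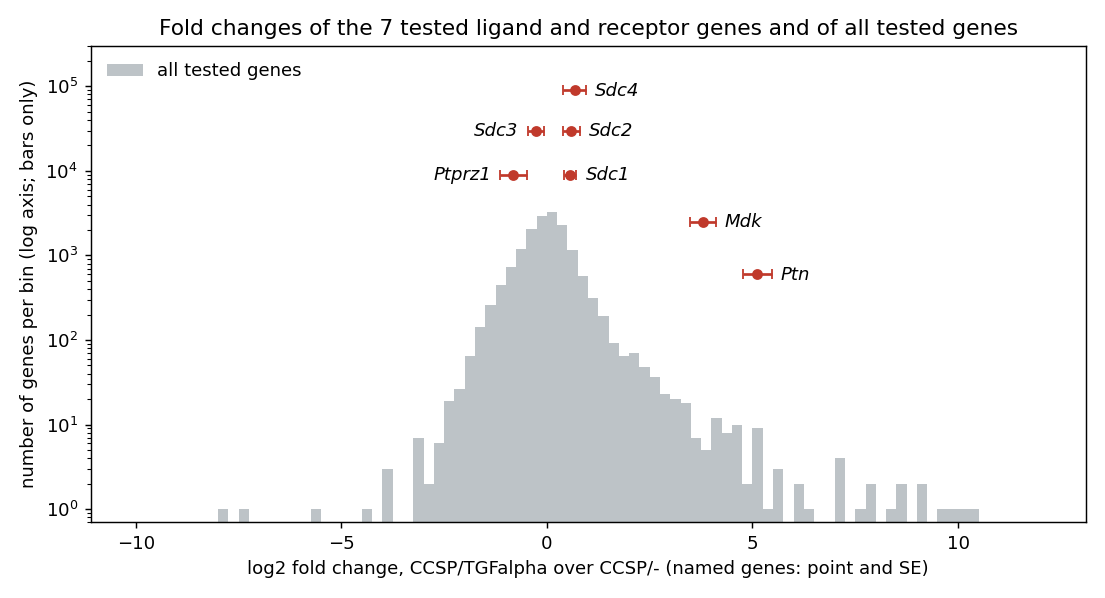
Distribution of the log2 fold change (CCSP/TGFalpha over CCSP/-) of all 16089 tested genes, as grey bars with a log count axis, with the 7 tested ligand and receptor genes as red points with SE. The height of the points carries no value. Ptn (5.12) and Mdk (3.79) lie in the right tail, and the 5 receptor genes lie between -0.81 and 0.67.

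Among the receptors, Ptprz1 (gene ID 19283, chromosome 6, 22875315 to 23052916), the phosphatase receptor, had 3.61, 7.11 and 8.04 CPM in CCSP/TGFalpha lungs, against 13.5, 9.44 and 10.1 CPM in control lungs. Every CCSP/TGFalpha library was below every control library, and the nearest pair differed little, at 8.04 and 9.44 CPM. The log2 fold change was -0.81 ± 0.32 (SE), and -0.37 without the libraries numbered 1, which held its lowest and its highest value. Without TGFalpha replicate 1 alone it was -0.54. Ptprz1 and Ptn thus differed in opposite directions.

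Alk (gene ID 11682, chromosome 17, 71868988 to 72604702), the kinase receptor, had 0 counts in all 6 libraries. A count of 3, the limit a count of 0 allows, would be 0.12 to 0.14 CPM in these libraries, for counting error only. Its ligands were measurable at low levels. Alkal1 averaged 4.57 CPM in CCSP/TGFalpha lungs and 5.41 CPM in control lungs, and Alkal2 2.02 and 0.790 CPM. The related kinase gene Ltk averaged 4.34 CPM in CCSP/TGFalpha lungs and 4.33 CPM in control lungs. None of these 3 passed the test (edgeR adjusted p = 0.716, 0.0803 and 0.994), and they were picked after their values were seen.

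Sdc1 (gene ID 20969, chromosome 12, 8771396 to 8793716), the syndecan of epithelia and of plasma cells, had 389, 335 and 404 CPM in CCSP/TGFalpha lungs, against 274, 246 and 240 CPM in control lungs. The groups did not overlap, although the closest libraries were within 1.22-fold of each other. The log2 fold change was 0.57 ± 0.15 (SE), and 0.60 without the libraries numbered 1. The 6 plasma cell markers summed to 310 to 582 CPM in CCSP/TGFalpha lungs and 271 to 1070 CPM in control lungs, and the 6 alveolar type 2 markers to 11500 to 13900 and 10400 to 13600 CPM, so the sums of both lists overlapped between groups. Sums of the other 3 epithelial lists (alveolar type 1, ciliated and club cells), given above, were lower in CCSP/TGFalpha lungs with no overlap, and their part in the level of Sdc1 was not tested.

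Sdc2 (gene ID 15529, chromosome 15, 32920723 to 33034721), the syndecan typical of mesenchymal cells, had 123, 137 and 113 CPM in CCSP/TGFalpha lungs, against 61.9, 80.6 and 105 CPM in control lungs. The groups were separate by a narrow margin of 1.08-fold between the closest libraries, because control replicate 3 was high. The log2 fold change was 0.59 ± 0.21 (SE), and 0.42 without the libraries numbered 1.

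Sdc4 (gene ID 20971, chromosome 2, 164424247 to 164443188), a widely expressed syndecan of cell adhesion sites, had 480, 333 and 565 CPM in CCSP/TGFalpha lungs, against 254, 391 and 219 CPM in control lungs. The groups overlapped, since control replicate 2 was above TGFalpha replicate 2. Its log2 fold change was 0.67 ± 0.27 (SE), and 0.56 without the libraries numbered 1.

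Sdc3 (gene ID 20970, chromosome 4, 130792537 to 130826318), known in the nervous system as a receptor for pleiotrophin, had 68.3, 111 and 77.9 CPM in CCSP/TGFalpha lungs, against 101, 109 and 100 CPM in control lungs. One CCSP/TGFalpha library was above all controls and the other 2 were below them, so the groups overlapped. The log2 fold change was -0.27 ± 0.20 (SE), and -0.15 without the libraries numbered 1. It was -0.13 without TGFalpha replicate 1 alone and -0.50 without TGFalpha replicate 2 alone. Antisense genes overlap Sdc3 in the GENCODE M21 annotation, and without a stated strand setting their reads cannot be separated. No other annotated gene overlapped Ptn, Mdk, Ptprz1, Sdc1, Sdc2 or Sdc4.

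Of the 7 tested genes, 4 were higher with no overlap between groups (17.7% of all tested genes were) and 1 was lower with no overlap (15.5% of all were). The signs of all 7 fold changes stayed the same under every alternative scaling, filter, tool and left-out library tried.

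Per kilobase of transcript, the order of levels in CCSP/TGFalpha lungs was Sdc4 (187 ± 47.6 CPM per kb, SD, n = 3), Sdc1 (119 ± 11.5), Mdk (67.1 ± 23.3), Sdc2 (35.2 ± 3.40), Ptn (21.5 ± 3.33), Sdc3 (17.2 ± 4.51) and Ptprz1 (0.776 ± 0.290). Ptn and Sdc3 overlapped over libraries, and the other neighbours did not. In control lungs the order was Sdc4 (117 ± 37.1 CPM per kb), Sdc1 (80.3 ± 5.72), Sdc2 (23.4 ± 6.11), Sdc3 (20.8 ± 1.02), Mdk (4.85 ± 1.27), Ptprz1 (1.36 ± 0.269) and Ptn (0.612 ± 0.299), where Sdc2 and Sdc3 overlapped. Mdk thus stood above Sdc2 in CCSP/TGFalpha lungs and below Sdc3 in control lungs, and Ptn was the lowest of the 7 in control lungs. These levels use the longest transcript in GENCODE M21 and would shift with another isoform.

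Syndecan transcripts together reached 367, 303 and 405 CPM per kb in CCSP/TGFalpha lungs, against 228, 282 and 215 CPM per kb in control lungs. Summed ligand transcripts were 112, 90.0 and 63.5 CPM per kb in CCSP/TGFalpha lungs, against 7.15, 5.01 and 4.22 CPM per kb in control lungs. There were thus 0.306, 0.297 and 0.157 ligand transcripts per syndecan transcript in CCSP/TGFalpha lungs, against 0.0314, 0.0178 and 0.0196 in control lungs. Within the syndecans the shares were alike for 3 of the 4 genes: Sdc1 made up 33.4 ± 1.7% in CCSP/TGFalpha lungs and 33.7 ± 5.4% in control lungs (SD, n = 3 each), Sdc2 10.1 ± 2.5% and 9.87 ± 3.41%, and Sdc4 51.6 ± 6.13% and 47.7 ± 7.78%. The share of Sdc3 was 3.74, 7.37 and 3.87% in CCSP/TGFalpha lungs, against 8.90, 7.79 and 9.36% in control lungs. These shares did not overlap, but the margin was narrow, at 7.37 and 7.79% for the closest libraries. The level of Sdc3 itself overlapped between groups.

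**Figure D3:**
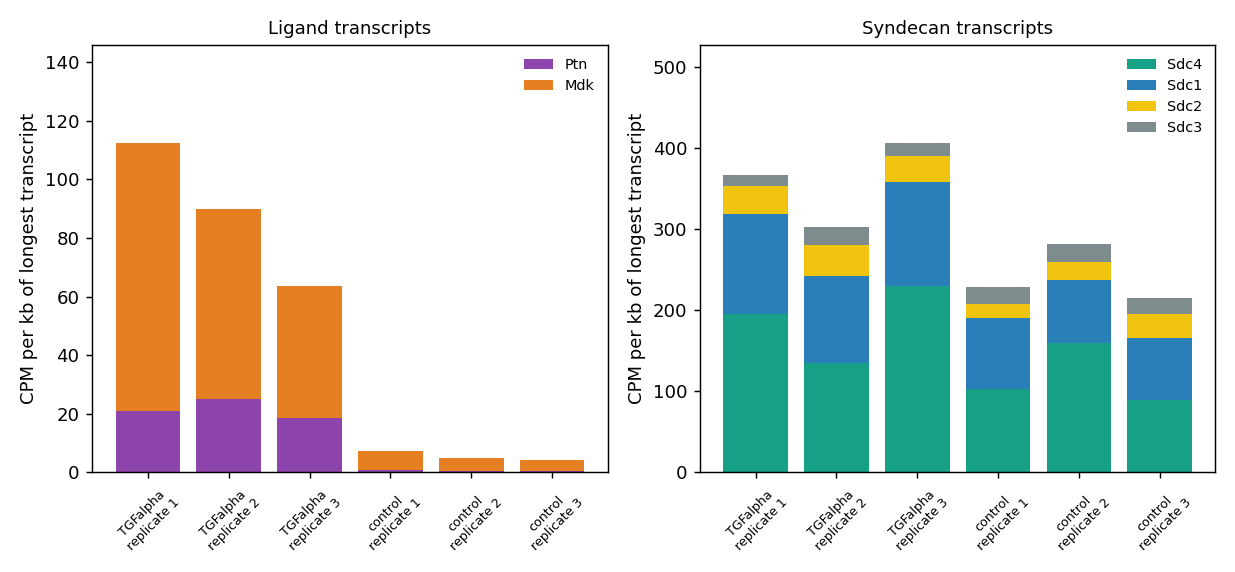
Stacked CPM per kilobase of the longest transcript in each library, the 3 CCSP/TGFalpha libraries left of the 3 control libraries, for the ligand genes (left panel) and the syndecan genes (right panel, on its own axis). Ligand sums run from 63.5 to 112 in CCSP/TGFalpha libraries and from 4.22 to 7.15 in control libraries, while syndecan sums run from 303 to 405 and from 215 to 282.

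The genes most like Ptn over the 6 libraries, by Pearson correlation of log2 CPM among 15060 genes with a mean of at least 1 CPM, were Amd1 and Amd2 (r = 0.9967 each), Flrt2 (0.9956), Nudt6 (0.9955) and Twist1 (0.9944). Amd1 and Amd2 are near-identical copies with the same counts in every library and cannot be told apart. Flrt2 encodes a membrane adhesion protein and Twist1 a mesenchymal transcription factor. Those most like Mdk were Txndc5 (0.9985), an endoplasmic reticulum oxidoreductase gene, Spsb1 (0.9976), Gtf2e2 (0.9967), Zfp207 (0.9967) and Nudt6 (0.9955). Mdk was at place 53 for Ptn and Ptn at place 97 for Mdk (r = 0.983). Nudt6 was on both lists, at 17.4 ± 1.92 CPM in CCSP/TGFalpha lungs and 4.29 ± 0.536 CPM in control lungs (SD, n = 3 each). The 6 points form 2 groups, so these values mainly rank how cleanly a gene separates them.

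The wider pathway around these genes was divided. In 7 lists of partner, proteoglycan and sugar-chain genes, 80 of 87 distinct genes were tested (Gpc2 is in 2 lists), and 10 rose (12.5%, against 5.03% of all tested genes) and 4 fell (5.0%, against 3.29%) in CCSP/TGFalpha lungs at an edgeR adjusted p under 0.05. The lists were chosen with earlier results of these data known, so nothing is read from these shares. The median log2 fold change of the 80 genes was 0.01, equal to that of all genes. The counts depended on single libraries: 7 rose and 2 fell without control replicate 1, 7 and 0 without control replicate 2, 5 and 0 without control replicate 3, 7 and 0 without TGFalpha replicate 1, and 7 and 0 without TGFalpha replicate 2. Where edgeR gave 0, the genes lower at an unadjusted p under 0.05 numbered 10, 6, 8 and 10. With both libraries numbered 1 left out 5 rose and 1 fell.

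Among 12 other binding partners of pleiotrophin and midkine, 2 rose. Vcan, which encodes the matrix proteoglycan versican whose chondroitin sulfate chains bind midkine, rose to 417 ± 173 CPM in CCSP/TGFalpha lungs, against 16.1 ± 3.35 CPM in control lungs (SD, n = 3 each; edgeR adjusted p = 0.000621). Ncl, the gene of the nucleolar protein nucleolin that also binds both factors at the cell surface, rose to 292 ± 19.1 CPM, against 195 ± 8.01 CPM in control lungs (adjusted p = 0.0395). The Ncl call was lost without any 1 library (adjusted p from 0.0672 to 0.142). The other 10 partners, among them the integrin subunits, Lrp1, Nrp1 and Notch2, did not pass and had log2 fold changes from -0.95 to 0.64. The median of the list was 0.22.

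Of 7 tested ligands and relatives of Ptprz1 and Alk, 2 rose. Tnc, the gene of tenascin C, a matrix ligand of the phosphatase, rose to 983 ± 187 CPM in CCSP/TGFalpha lungs, against 23.6 ± 6.37 CPM in control lungs (SD, n = 3 each; edgeR adjusted p = 0.000246). Nrcam, a cell adhesion molecule gene, rose to 19.7 ± 0.958 CPM, against 8.25 ± 1.78 CPM in control lungs (adjusted p = 0.0117, and 0.0679 without control replicate 3). The median log2 fold change of that list was 0.00. The large rises of Tnc and Vcan were known before these lists were drawn up.

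Heparan sulfate genes moved both ways. Of 10 other heparan sulfate proteoglycan genes, Gpc1 alone rose, to 34.4 ± 6.20 CPM in CCSP/TGFalpha lungs against 13.3 ± 2.29 CPM in control lungs (SD, n = 3 each; edgeR adjusted p = 0.00838). It encodes glypican 1, which is held in the membrane by a lipid anchor. The list had a median log2 fold change of -0.10. Of 20 tested genes of heparan sulfate assembly and editing, 1 rose and 2 fell, with a median of -0.10 and 12 negative values. Sulf1, an enzyme gene whose product strips sulfate groups from heparan sulfate outside the cell, rose to 122 ± 33.8 CPM, against 54.2 ± 18.1 CPM in control lungs (adjusted p = 0.0471). Ndst1, whose enzyme starts sulfation of the chain, fell to 155 ± 38.0 CPM, against 264 ± 17.6 CPM in control lungs (adjusted p = 0.0481). The related Ndst3 fell to 0.210 ± 0.0871 CPM, against 1.06 ± 0.0184 CPM (adjusted p = 0.0491). Its CCSP/TGFalpha values of 0.298, 0.123 and 0.209 CPM were near the floor, since 3 counts were 0.123 to 0.128 CPM there. The Ndst3 call was lost in edgeR with no filter (adjusted p = 0.0957) and in limma-voom (adjusted p = 0.0579). These 3 calls were weak: those of Sulf1 and Ndst3 were lost without any 1 library (adjusted p from 0.0588 to 0.139 and from 0.108 to 0.182), and that of Ndst1 without any 1 library but TGFalpha replicate 3 (0.0752 to 0.156).

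Chondroitin and dermatan sulfate genes, which build the chains of Ptprz1 and versican, moved both ways, with 2 rises and 2 falls among 15 tested and a median log2 fold change of 0.05. Dsel, a dermatan sulfate epimerase gene, rose to 95.6 ± 28.3 CPM in CCSP/TGFalpha lungs, against 27.3 ± 3.11 CPM in control lungs (SD, n = 3 each; edgeR adjusted p = 0.00458). Chsy1, a chondroitin synthase gene, rose to 131 ± 2.74 CPM, against 70.7 ± 8.36 CPM in control lungs (adjusted p = 0.013, and 0.0807 without control replicate 3). Csgalnact1, whose enzyme starts the chondroitin chain, fell to 14.8 ± 2.16 CPM, against 29.9 ± 5.72 CPM (adjusted p = 0.0231). Chst15, whose product makes the doubly sulfated chondroitin unit that pleiotrophin and midkine bind well, fell to 25.7 ± 4.90 CPM, against 48.8 ± 12.4 CPM (adjusted p = 0.0469). The call of Csgalnact1 was kept without control replicate 1 or TGFalpha replicate 3 and lost without each other library (adjusted p from 0.0535 to 0.101), and that of Chst15 was kept without control replicate 1 alone (up to 0.163).

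Of the 6 genes of the linker that both kinds of chain share, B3galt6, a galactosyltransferase gene, rose to 13.0 ± 0.914 CPM in CCSP/TGFalpha lungs, against 7.11 ± 0.608 CPM in control lungs (SD, n = 3 each; edgeR adjusted p = 0.0342). That call was lost without any 1 library (adjusted p from 0.0547 to 0.132), and the median of the list was 0.07. Of 11 tested syndecan adaptors and sheddases, Mmp14 alone rose, to 299 ± 118 CPM against 68.8 ± 4.02 CPM in control lungs (adjusted p = 0.00481). Its product is a membrane metalloproteinase that can cut syndecan 1 from the cell surface. The other 10, among them the adaptor Sdcbp (595 CPM in CCSP/TGFalpha lungs and 593 CPM in control lungs, picked after its values were seen) and the sheddases Adam10 and Adam17, did not pass, and the median of the list was 0.00.

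**Figure D4:**
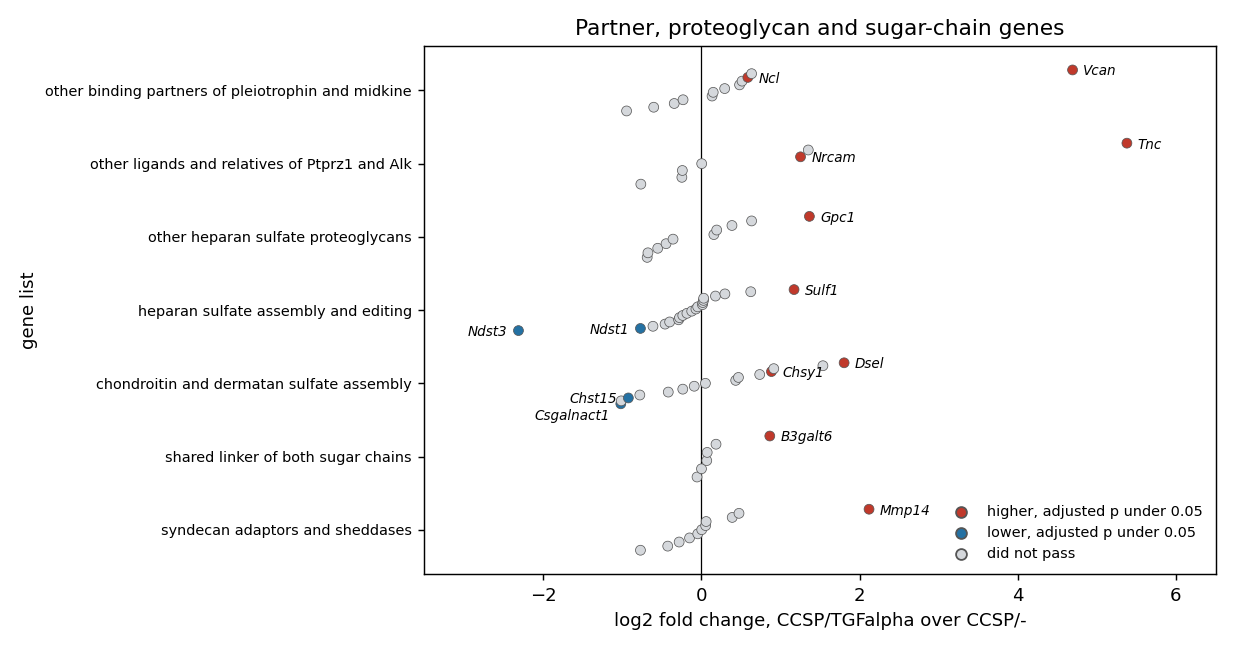
Log2 fold change (CCSP/TGFalpha over CCSP/-) of each tested gene in the 7 lists, 1 row per list. Red points rose and blue points fell at an edgeR adjusted p under 0.05, and grey points did not pass. Tnc and Vcan lie at 5.38 and 4.69, and the median of the 80 genes is 0.01.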

How the data were processed

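The authors deposited 1 table of raw read counts per gene, with 24061 rows in 6 libraries. The submitters' processing notes name bcl2fastq, CASAVA 1.8, TopHat and DESeq and the build mm10. The counting tool, its strand setting and the annotation are not given in the sources used here. Row IDs were matched to symbols in a RefSeq table of GRCm38.p6 (23976 matched). The other rows, a median of 2.91% of counts, were kept in totals and tests.

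Groups came from the titles. Groups were compared with edgeR 4.0.16 in R 4.3.3 (glmQLFit and glmQLFTest, group as the only term), with TMM scaling, its expression filter by group (16089 genes) and Benjamini-Hochberg adjustment over all of them, at 0.05. It was checked on counts drawn from known changes. The SE of a log2 fold change was its size over the square root of F. No libraries of a group were duplicates (chi-square over degrees of freedom 46.6 or more).

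Genes and lists were chosen with earlier results of these data known. From each list the 4 genes with the smallest adjusted p among those that passed were named, with the largest change against the list's majority. Alternatives were DESeq2 1.42.0, limma-voom (limma 3.58.1), other scalings and filters, a replicate block and left-out libraries.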

Additional observations from a re-analysis of the deposited data

How the results depend on the processing

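The fold changes of the 7 tested ligand and receptor genes kept their sign in all 15 alternatives, and none moved by as much as 1 SD of the libraries. With DESeq2 or limma-voom 3 of them, Sdc1 added, were past the threshold as higher. Since the set was chosen with this difference known, nothing is read from that count either. With 1 library left out, 238 to 1088 genes of the whole table passed (1340 with all libraries), 204 to 606 higher and 34 to 482 lower, and 5 to 12 pathway genes passed (14 with all), 5 to 9 higher and 0 to 3 lower. DESeq2 gave 2621 genes, 1342 higher and 1279 lower, and 22 pathway genes, 7 of them lower. Without both libraries numbered 1, 473 genes passed, 307 higher and 166 lower, with 6 pathway genes, 5 higher and 1 lower. With library totals as the only scaling 2 pathway genes were lower. The cause of these shifts was not tested, beyond fewer libraries in the fits that leave some out. Deviations of same-numbered libraries correlated across genes at 0.421 for number 1, -0.0516 for number 2 and 0.222 for number 3. These values do not settle whether the replicate numbers pair the libraries, and both libraries numbered 1 were rich in skeletal muscle transcripts. The main fit used no pairing. With the replicate block 1470 genes passed, and 13 pathway genes, 8 higher and 5 lower. The depth of 0.12 CPM or more for 3 counts limits what can be said of Alk.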
